A study of Mus musculus with 48 samples.

Results

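Liver gene expression in control mice was compared between the 16 h and 4 h collections, 2 of the 6 times of a series sampled every 4 h. The comparison took the libraries whose genotype label is WT and whose collection time is 16 (5 libraries) or 4 (4 libraries), 9 of the 48 libraries of the study. All 22353 genes of the deposited count table other than Alb entered, and 13646 of them had enough counts to be tested. WT mice were littermate controls, C57BL/6 by strain label and 4 to 6 months old, from a line with a floxed Bmal1 gene, whose gene symbol is Arntl. The KO mice of the study carried 2 floxed alleles and Cre recombinase under the aP2 promoter, a driver used for adipocytes. The labels do not say whether the controls carried floxed alleles or Cre. All mice had been in constant darkness for 36 h with free access to food and were killed in darkness. KO libraries at 16 h (3) and 4 h (4), and WT libraries at 0, 8, 12 and 20 h (16 in all), were used beside the main groups. Each library was 1 mouse by the labels, and the design text states 4 mice per genotype and time, where the labels give 5 WT and 3 KO libraries at 16 h.

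The mammalian clock is a feedback loop in which BMAL1, with CLOCK or NPAS2, activates genes through E-box sequences, among them the Per and Cry genes, whose products then repress that activation. A second loop runs through the nuclear receptors REV-ERB, encoded by Nr1d1 and Nr1d2, which repress Arntl, Npas2 and Cry1. In liver this machinery, with feeding, hormones and the daily rhythm of body temperature, is known to time genes of lipid, glucose and drug metabolism. Mice are active and eat mostly in the dark phase, and heat shock factor and cold-inducible genes are known to follow body temperature.

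Promoter sequences of the genes described below were read from RefSeq windows of 250 bases before to 50 bases after each start, build GRCm38.p6, and searched on both strands for the E-box CACGTG, the D-box TTANGTAA, the REV-ERB element TNGGTCA, and paired heat shock units as GAANNTTC or TTCNNGAA, and for the 3-unit element in which the one runs into the other and both share the middle TTC. Of the 13618 symbols tested, 9394 had a window. GAANNTTC stood in 7.23% of them, TTCNNGAA in 8.46%, the 3-unit element in 0.596%, the E-box in 11.7%, TNGGTCA in 12.1% and the D-box in 1.99%. Among the 12 heat shock genes that were higher at 16 h and had a window, 8 held GAANNTTC, and so did 3 of the 5 with a window that did not pass the test, Dnaja4 and the mitochondrial chaperonins Hspd1 and Hspe1. TTCNNGAA stood in 2 of the 12 and 3 of the 5, and the 3-unit element in 2 of the 12 and 2 of the 5. Among the 14 clock and clock output genes higher at 16 h with a window, 5 held an E-box, 3 held TNGGTCA and 2 held a D-box. Among the 14 with a window that did not pass, these numbers were 2, 5 and 0. A match is only a match of letters, and these motifs were chosen with the results known. The lines below show 100 bases from the region upstream of the start for 4 heat shock genes that rose and 2 clock genes that rose. They run 5′ to 3′ on the gene's strand, with the matched letters in capitals, so that the spacing of paired units and of the E-box and D-boxes can be read. The stretches end 50 (Hspa1b), 53 (Hspb1), 97 (Fkbp4), 0 (Hsph1), 7 (Cry1) and 128 (Per3) bases before the start. Hsph1 also held GAANNTTC and the 3-unit element, outside the bases shown.
Hspa1b (GAANNTTC, chr17:34959289-34959388, minus strand): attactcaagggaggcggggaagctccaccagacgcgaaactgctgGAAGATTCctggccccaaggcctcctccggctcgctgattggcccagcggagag
Hspb1 (GAANNTTC, 2 matches, chr5:135887766-135887865, plus strand): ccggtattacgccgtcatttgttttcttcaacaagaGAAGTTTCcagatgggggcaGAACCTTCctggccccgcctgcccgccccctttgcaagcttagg
Fkbp4 (GAANNTTC, chr6:128438754-128438853, minus strand): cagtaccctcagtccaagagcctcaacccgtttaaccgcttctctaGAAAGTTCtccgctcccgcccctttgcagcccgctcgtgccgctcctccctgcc
Hsph1 (TTCNNGAA, chr5:149636337-149636436, minus strand): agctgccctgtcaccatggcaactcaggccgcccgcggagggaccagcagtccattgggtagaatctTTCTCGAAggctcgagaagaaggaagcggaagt
Cry1 (E-box, chr10:85185062-85185161, minus strand): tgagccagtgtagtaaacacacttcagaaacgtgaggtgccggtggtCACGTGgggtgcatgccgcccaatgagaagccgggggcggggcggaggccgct
Per3 (D-box, 2 matches, chr4:151044794-151044893, minus strand): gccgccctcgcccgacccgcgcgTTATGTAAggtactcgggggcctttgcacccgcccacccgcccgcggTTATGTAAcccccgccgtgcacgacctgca

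Total counts of the 9 libraries lay between 12841969 and 13007696 without Alb, nearly equal, which does not show that the sequencing depth was. Values are given below as CPM, the count relative to the library's total after scaling for composition. Levels of different genes are not compared with each other, because the counts are not divided by gene length. The tissue label reads liver and the cell type label Adipocyte. Hepatocyte markers held 47180 to 63920 CPM in sum, adipocyte markers, some of which liver also expresses, 393.3 to 1683, and pancreas and skeletal muscle markers at most 9.76 and 1.29, while markers of other liver cells are given with the results they touch. In a piece of liver, fewer cells of a type and less RNA per cell cannot be told apart. The design text calls the mice male, but Xist held 3029 to 10955 counts in the 9 libraries and 3 genes of the Y chromosome, Uty, Kdm5d and Eif2s3y, held 0. WT library 2 at 16 h stood apart on the first principal component of the 9 libraries, 29.9% of their variance over 2000 genes. It lay at 46.2 and the other 8 between -24.3 and 23.4. Libraries 3 and 4 at 4 h (22.35 and 23.39) also lay apart there from libraries 1 and 2 at 4 h (-14.19 and -8.1). The second component (23.6%) separated the 4 h libraries (13.0 to 28.3) from the 16 h libraries (-25.1 to -6.52). Across 13316 genes, the deviation of WT library 2 at 16 h from the mean of all libraries fell with the GC content of the transcript (r = -0.569). In the other 4 libraries at 16 h it rose with it (0.415 to 0.502). At 4 h the values were 0.523 and 0.377 in libraries 1 and 2, and 0.025 and -0.026 in libraries 3 and 4.

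Between 4 h and 16 h, 604 genes (4.43% of those tested) changed, with 314 (2.3%) higher and 290 (2.13%) lower at 16 h, by edgeR's quasi-likelihood test at a Benjamini-Hochberg adjusted p under 0.05. The increases were larger than the decreases: the median log2 change, 16 h minus 4 h, was 1.21 among the genes that rose and -0.89 among those that fell, against 0.05 over all genes tested. A change of more than 2-fold was found in 212 genes that rose and 121 that fell, and of more than 4-fold in 55 and 21. In 475 of the 604 genes, all libraries of one time lay above all libraries of the other, which held for 7.18% of all genes tested. The test chose the 604 genes on these same libraries, so a lack of overlap, here and below, is not separate support. Without library 2 at 16 h, 667 genes passed, 497 of them among the 604. The number of genes past the threshold, called below, rested in part on single 4 h libraries, with 368, 390, 330 and 409 genes called when WT library 1, 2, 3 or 4 at 4 h was left out. It was 248 when only these 9 libraries were fitted and 1109 after a correction for GC content. Scaled by library totals alone, 239 genes were higher and 439 lower, so the split between directions depended on the scaling.

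**Figure D1:**
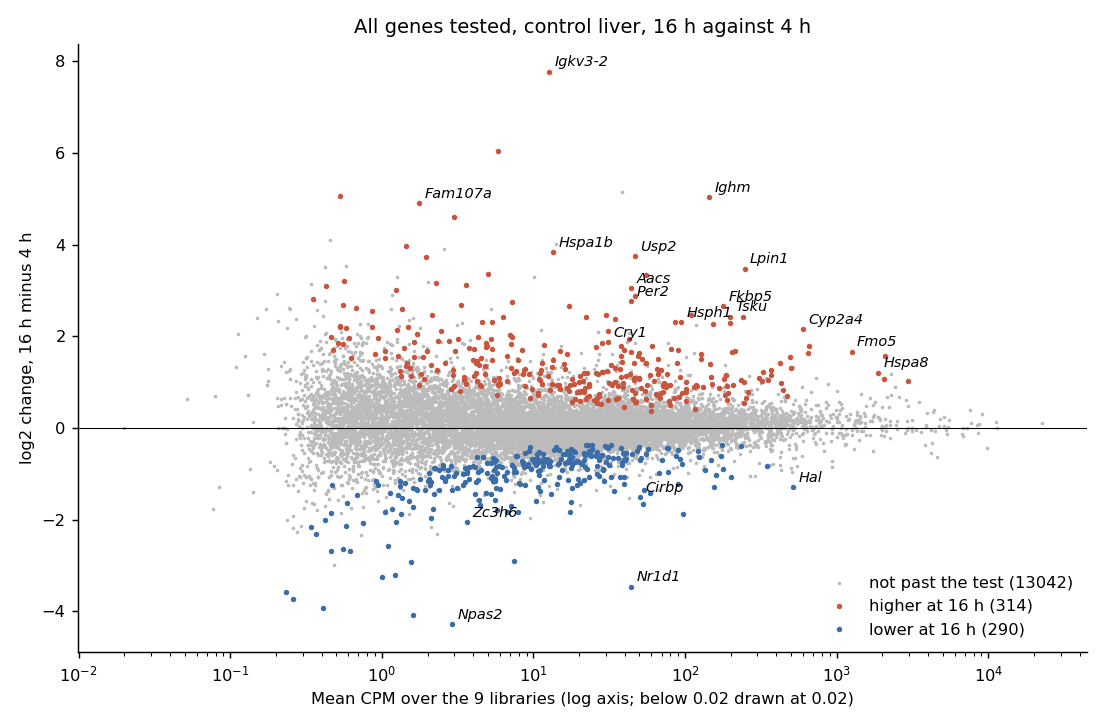
Each point is 1 of the genes tested, with its mean CPM over the 9 libraries on a log axis and its log2 change, 16 h minus 4 h, on the vertical axis. The 314 genes higher at 16 h reach larger changes than the 290 lower genes, and Npas2 (-4.29) and Nr1d1 (-3.47) are labelled below 0.

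Of the 4 core clock activators described here, 1 fell (25%, against 2.13% of all genes) and none rose. Npas2, the partner of BMAL1 beside CLOCK (chr1:39250576-39420079 in mm9, the build of all gene positions below), measured 3.45, 14.6, 2.54 and 4.02 CPM at 4 h against 0.161, 0.586, 0.072, 0.255 and 0.475 CPM at 16 h. It was close to undetected in every 16 h library, and its log2 change was -4.29 ± 0.59 (adjusted p = 1.0e-05). Arntl itself measured 20.2, 34.2, 12.4 and 17.6 CPM at 4 h against 13.8, 21.3, 15.2, 15.1 and 15.4 CPM at 16 h, so the groups overlapped (log2 change -0.38 ± 0.36, adjusted p = 0.67). Clock (0.36 ± 0.32, adjusted p = 0.65) and Rora (0.44 ± 0.31, adjusted p = 0.52) did not pass either.

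Of the 11 core clock repressors, 3 rose and 1 fell (36.4%, against 4.43% of all genes). Per2 (chr1:93312561-93355907), a target and repressor of the BMAL1 complex, measured 8.9, 4.89, 14 and 14 CPM at 4 h against 91.4, 50.2, 79.8, 43 and 91.9 CPM at 16 h (2.77 ± 0.30, adjusted p = 1.4e-07). Cry1, its partner in repression (chr10:84594447-84647799), measured 11.7, 22.7, 7.4 and 8.11 CPM at 4 h against 47.5, 45.8, 47.2, 52.8 and 33.8 CPM at 16 h (1.87 ± 0.26, adjusted p = 1.0e-05). Both genes were higher in all 5 libraries at 16 h than in any at 4 h. Per3 measured 16.8, 6.5, 27.2 and 12 CPM at 4 h against 48.2, 29.4, 39.6, 22.5 and 38.1 CPM at 16 h (1.19 ± 0.33, adjusted p = 0.026), and here the groups overlapped. Its call was lost when library 1 or 3 at 16 h or library 1, 2 or 4 at 4 h was left out (log2 changes 0.93 to 1.60 over the 9 omissions, adjusted p up to 0.13).

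Nr1d1, which encodes REV-ERB alpha (chr11:98629246-98636647), went the other way. It measured 186, 79.7, 55 and 34.3 CPM at 4 h against 12.1, 1.42, 6.76, 11.5 and 8.23 CPM at 16 h. The 4 h libraries differed widely, yet the lowest of them was above the highest 16 h library, and the log2 change was -3.47 ± 0.80 (adjusted p = 0.0066). Its paralog Nr1d2 measured 65 to 75.2 CPM at 4 h against 50.9 to 118 CPM at 16 h (0.24 ± 0.34, adjusted p = 0.81). Per1, the remaining Per gene, measured 85.1, 59.7, 25.3 and 15.1 CPM at 4 h against 85.7, 25.9, 81.3, 75.7 and 69.9 CPM at 16 h. Its spread within each time was as large as the difference between them (0.55 ± 0.57, adjusted p = 0.71). Cry2, Bhlhe40, Bhlhe41, Nfil3 and Gm129, the symbol the table uses for a repressor of the BMAL1 complex, did not pass (log2 changes -0.44 to 1.52, adjusted p 0.18 to 0.78). Without library 1 at 4 h Gm129 passed, at a log2 change of 2.69 (adjusted p = 0.023), and Bhlhe41 stood at 0.15, Bhlhe40 at 0.76, Nfil3 at 0.72 and Per1 at 1.02. In Per1, Bhlhe40 and Nfil3 the libraries 1 and 2 at 4 h measured higher than libraries 3 and 4 (164 and 103 against 51.5 and 54.7 CPM for Bhlhe40), so the 4 h group was not uniform in these genes.

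Of 23 tested clock output genes 14 rose (60.9%, against 2.3% of all genes), none fell, and 9 did not pass, 4 of them with a negative log2 change. As with all gene lists here, its members were chosen with earlier results of these data known. The shares of the lists are therefore not independent of the data. The median log2 change of the list was 1.51. Usp2, a deubiquitinating enzyme (chr9:43875104-43903708), measured 6.9, 9.48, 4.94 and 2.37 CPM at 4 h against 115, 23.6, 110, 92.9 and 56.3 CPM at 16 h (3.75 ± 0.51, adjusted p = 1.0e-05). Lpin1, a phosphatidate phosphatase of triglyceride synthesis that is also in the glucocorticoid list, measured 50.9, 39.2, 19.7 and 39.5 CPM at 4 h against 717, 209, 360, 595 and 188 CPM at 16 h (3.47 ± 0.71, adjusted p = 0.0021). Fmo5, a flavin monooxygenase, measured 591, 785, 490 and 403 CPM at 4 h against 2369, 1485, 2099, 2041 and 1016 CPM at 16 h (1.67 ± 0.26, adjusted p = 6.8e-05). In none of these genes did the groups overlap.

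The other output genes that rose cover several steps of metabolism. Nampt, the rate-limiting enzyme of NAD salvage, was at 53.9 to 73.8 CPM at 4 h against 122 to 266 CPM at 16 h (1.51 ± 0.33, adjusted p = 0.0049). Upp2, a uridine phosphorylase, was at 49.2 to 93.2 and 201 to 731 CPM (2.43 ± 0.46, adjusted p = 0.0011), and Ccrn4l, the deadenylase nocturnin, at 8.97 to 51.5 and 112 to 179 CPM (2.32 ± 0.53, adjusted p = 0.0063). Tspan4, Cys1, Pfkfb3 and Coq10b also rose, by 0.98 to 1.95 on the log2 scale. Alas1, the first enzyme of heme synthesis, Wee1, a mitotic kinase, the PAR bZIP factor Tef and Por, the electron donor of the P450 enzymes, passed with adjusted p of 0.010 to 0.048, and single libraries decided these calls. Alas1 lost its call without library 1 at 16 h or library 3 or 4 at 4 h (adjusted p up to 0.059), Wee1 without library 2 at 4 h (0.057), and Tef without library 1 at 16 h or library 2 or 4 at 4 h (up to 0.077). Por kept its call only without library 2 at 16 h or library 2 at 4 h, and reached an adjusted p of 0.17 among the other 7 omissions. Dbp, a PAR bZIP factor whose transcript is a strong direct target of the BMAL1 complex, did not pass: it measured 82.8, 11.6, 47.9 and 13.2 CPM at 4 h against 17, 5.53, 15.8, 25.3 and 12.8 CPM at 16 h (-1.35 ± 0.48, adjusted p = 0.11). Its log2 change was -0.67 without library 1 at 4 h, and it passed after the correction for GC content (adjusted p = 0.023). Gys2, Hlf, Marcks, Insig2, Ppard, Avpr1a, Elovl3 and Leo1 did not pass either (log2 changes -0.39 to 0.62, adjusted p 0.19 to 0.82).

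**Figure D2:**
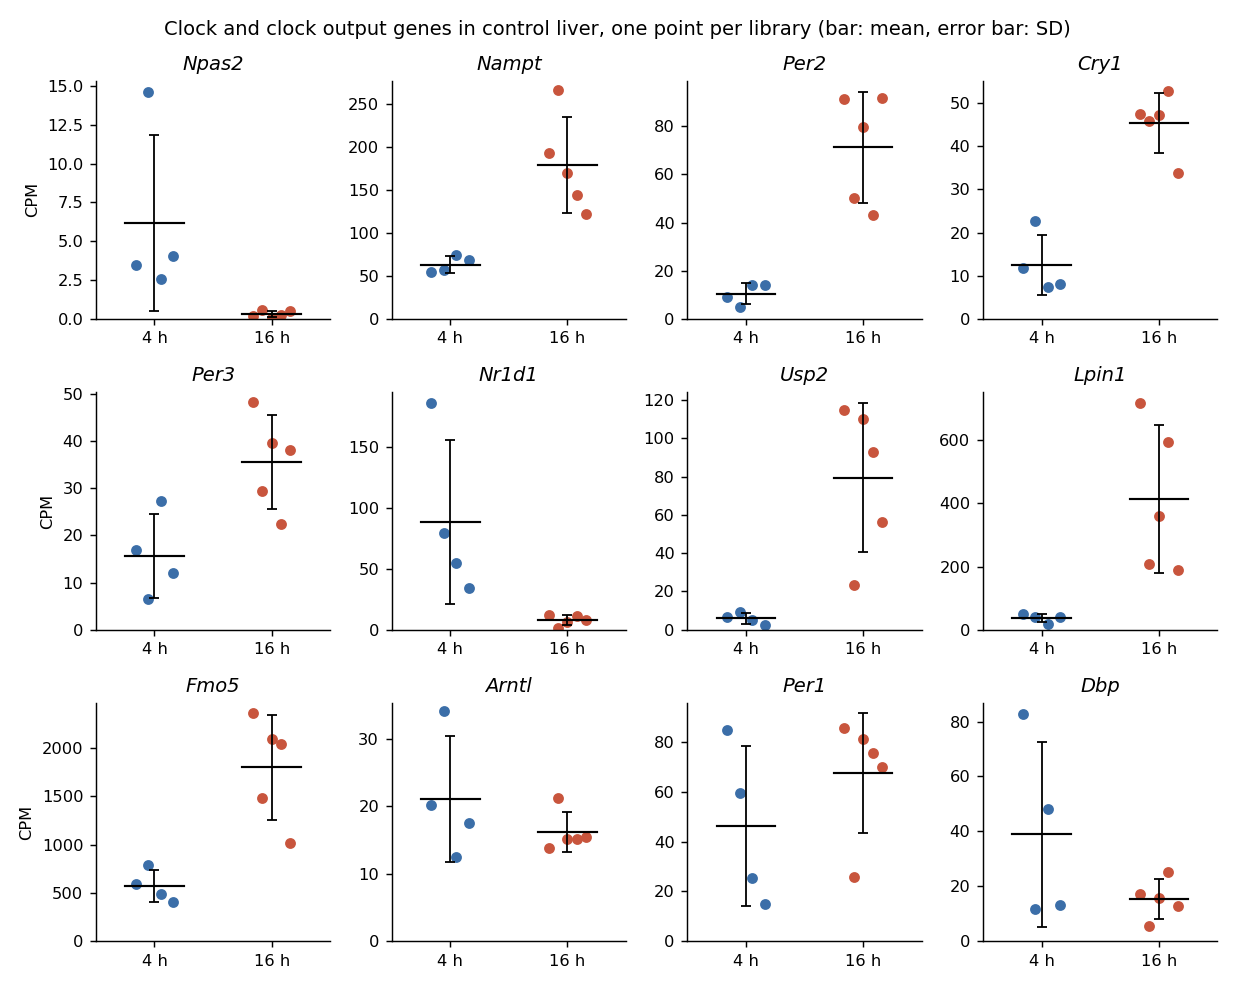
CPM of 12 clock and clock output genes in each of the 4 libraries at 4 h (blue) and the 5 at 16 h (red), with the mean and SD of each time. Per2, Cry1, Nampt, Usp2, Lpin1 and Fmo5 do not overlap upward, Npas2 and Nr1d1 do not overlap downward, and Arntl, Per1 and Dbp overlap.

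The heat shock list holds the heat shock factor Hsf1, cytosolic chaperones and cochaperones, and the mitochondrial chaperonins Hspd1 and Hspe1. Of its 22 tested members 14 were higher at 16 h (63.6%, against 2.3% of all genes), none was lower, and the median log2 change was 0.95. This list too was chosen with earlier results known, so its share is not independent of the data. Their summed level was 3264 to 3440 CPM in the 4 h libraries and 5369 to 7252 CPM in the 16 h libraries, with no overlap. Hspa8, the constitutive HSP70, measured 1035, 948, 1120 and 1257 CPM at 4 h against 2360, 3169, 1851, 2687 and 2502 CPM at 16 h (1.21 ± 0.22, adjusted p = 7.9e-04). Hsph1, a nucleotide exchange factor of HSP70 (chr5:150416862-150438951), measured 26.2, 26.1, 25.9 and 39.4 CPM at 4 h against 172, 174, 96, 129 and 158 CPM at 16 h (2.31 ± 0.32, adjusted p = 1.0e-05). The inducible HSP70 gene Hspa1b, which has a near-identical copy and may share reads with it, measured 0.69, 0.764, 1.2 and 3.73 CPM at 4 h against 28.6, 19.5, 9.28, 11.5 and 46.2 CPM at 16 h (3.83 ± 0.78, adjusted p = 0.0021).

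The cochaperones of HSP70 and HSP90 were among the members that rose. Dnajb1, the HSP40 partner of HSP70, went from 16.6 to 20.7 CPM at 4 h to 34.3 to 56.5 CPM at 16 h (1.32 ± 0.20, adjusted p = 6.8e-05). Chordc1, which binds HSP90, went from 17.4 to 30.8 CPM to 45.2 to 112 CPM (1.56 ± 0.28, adjusted p = 7.2e-04), and the immunophilin Fkbp4 from 108 to 140 CPM to 157 to 308 CPM (0.91 ± 0.18, adjusted p = 0.0012). The small heat shock protein Hspb1 overlapped between the times through library 2 at 16 h, which measured 12.5 CPM beside 33.1 to 91.8 CPM in the other 4 (2.46 ± 0.65, adjusted p = 0.021). Its call was lost without library 4 at 16 h or library 1, 3 or 4 at 4 h (up to 0.090). Hsp90ab1 did not pass: it measured 421 to 754 CPM at 4 h against 1298, 372, 1133, 1440 and 1386 CPM at 16 h, again with library 2 the lowest (0.97 ± 0.51, adjusted p = 0.33). Hspa4, another exchange factor, was at 130 to 141 and 115 to 169 CPM (-0.05 ± 0.14, adjusted p = 0.91). Of 26 tested genes of endoplasmic reticulum chaperones and the unfolded protein response 1 rose and none fell. This share of 3.85% is close to the 4.43% of all genes. The 1 that rose was Herpud1 (1.56 ± 0.30, adjusted p = 0.0011), and the median log2 change of the list was -0.09. Of 13 mitochondrial chaperones and proteases none passed, too few to differ from the share of all genes.

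**Figure D3:**
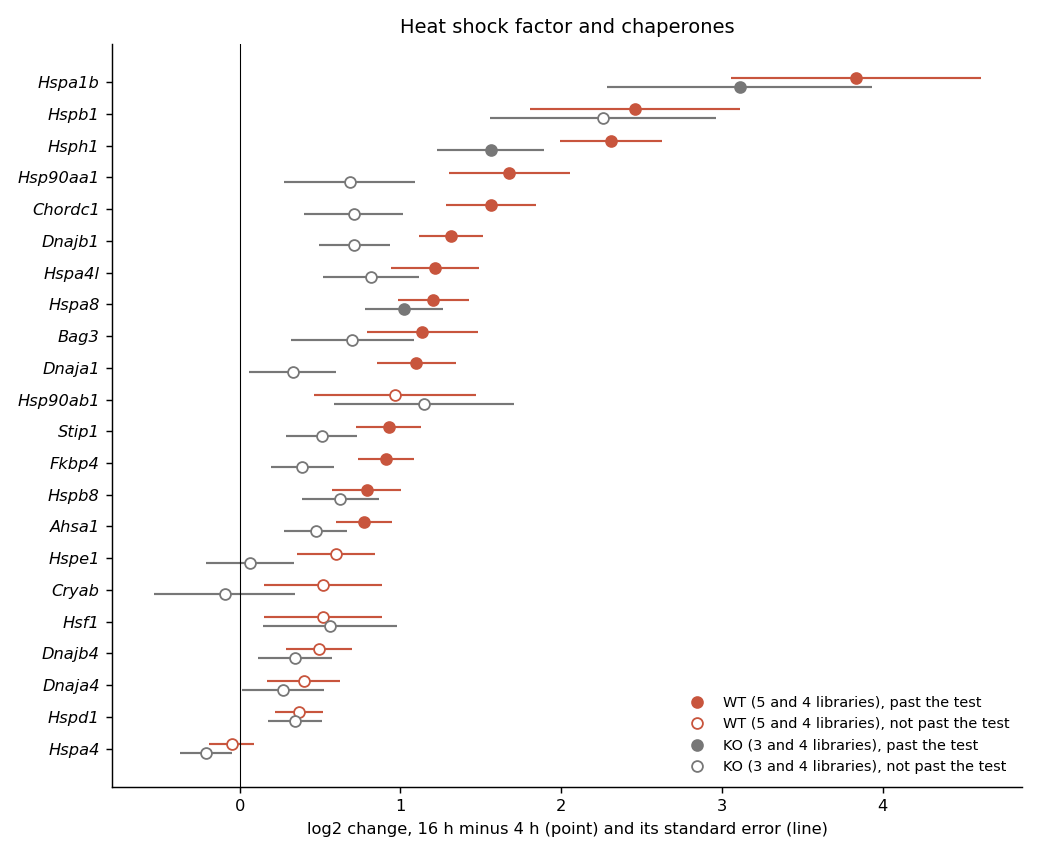
Log2 change, 16 h minus 4 h, with its standard error for the 22 tested members of the heat shock list in WT (red) and KO (grey) mice, filled where the adjusted p is under 0.05. In WT, 14 members are filled and all lie to the right of 0, while Hspa4 lies at -0.05.

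Of the cold-inducible RNA-binding proteins, Cirbp fell and Rbm3 did not pass. Cirbp measured 102, 101, 61.5 and 51.7 CPM at 4 h against 28.1, 15.5, 40.1, 32.3 and 23.2 CPM at 16 h, a log2 change of -1.51 ± 0.31 (adjusted p = 0.0021) with no overlap. Rbm3 measured 73.4, 80.3, 105 and 138 CPM at 4 h against 71.2, 107, 65.3, 33.5 and 58.8 CPM at 16 h (-0.56 ± 0.26, adjusted p = 0.25).

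Genes of cholesterol synthesis mostly had a positive log2 change, but few passed. Of 22 tested, 2 rose (9.09%, against 2.3% of all genes), none fell and 21 had a positive log2 change. The median was 1.02, against 0.05 over all genes tested. Their summed level overlapped between the times, at 1362 to 2837 CPM at 4 h and 2088 to 4440 CPM at 16 h. Acat2, which makes acetoacetyl-CoA, measured 48.6, 34, 39.3 and 35.2 CPM at 4 h against 95.7, 78.9, 80.6, 57.5 and 87.7 CPM at 16 h (1.03 ± 0.20, adjusted p = 0.0016). Pmvk, a kinase of the mevalonate pathway, was at 22.2 to 33.2 and 37.5 to 76.2 CPM (1.08 ± 0.32, adjusted p = 0.044) and kept its call only without library 2 or 4 at 16 h, with adjusted p up to 0.14 without the others. Idi1, an isomerase of the same pathway, had a wide spread and did not pass: it measured 16.6, 8.48, 25.8 and 10.5 CPM at 4 h against 76, 141, 34.1, 3.4 and 69.5 CPM at 16 h (2.08 ± 0.68, adjusted p = 0.073). Library 4 at 16 h was the lowest there. Sc5d was the member with a negative change (-0.26 ± 0.24, adjusted p = 0.67). Aacs, a cytosolic enzyme that turns ketone bodies into acetoacetyl-CoA and is in none of the lists, measured 12.5, 5.27, 7.93 and 9.4 CPM at 4 h against 127, 33.8, 77.2, 71.7 and 54 CPM at 16 h (3.05 ± 0.39, adjusted p = 5.5e-06).

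In fatty acid and triglyceride synthesis 3 of 24 tested genes rose (12.5%, against 2.3% of all genes) and none fell. Thrsp, which stimulates fatty acid synthesis, was at 37.6 to 78.3 CPM at 4 h against 173 to 536 CPM at 16 h (2.30 ± 0.50, adjusted p = 0.0036). Lpin2, a second phosphatidate phosphatase, measured 257, 298, 251 and 297 CPM at 4 h against 817, 935, 409, 549 and 688 CPM at 16 h (1.30 ± 0.29, adjusted p = 0.0050). Dgat2, the last enzyme of triglyceride synthesis, overlapped between the times (0.98 ± 0.29, adjusted p = 0.045) and lost its call without library 1, 4 or 5 at 16 h or library 2, 3 or 4 at 4 h (adjusted p up to 0.16). Fatty acid oxidation and PPAR alpha targets had 2 of 30 members higher (6.67%, against the same 2.3%), Angptl4, an inhibitor of lipoprotein lipase (1.05 ± 0.25, adjusted p = 0.0080), and the peroxisome factor Pex11a (1.15 ± 0.31, adjusted p = 0.024). Angptl4 lost its call without library 1 at 4 h (adjusted p = 0.059) or with only these 9 libraries fitted (0.099), and Pex11a without library 5 at 16 h or library 1 or 4 at 4 h (up to 0.11).

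Glucocorticoid-responsive genes and metallothioneins had 4 of 16 tested members higher (25%, against 2.3% of all genes) and none lower, with a median log2 change of 0.51. Fkbp5, a cochaperone of the glucocorticoid receptor and one of its strongest targets, measured 48.8, 53.2, 43.8 and 33.7 CPM at 4 h against 355, 222, 290, 393 and 154 CPM at 16 h (2.66 ± 0.44, adjusted p = 2.3e-04). Tsc22d3, known as GILZ, measured 68.1, 118, 91.2 and 93 CPM at 4 h against 324, 210, 328, 414 and 190 CPM at 16 h (1.66 ± 0.30, adjusted p = 6.2e-04). Both were higher in each 16 h library than in any 4 h library, as was Lpin1 above. Zbtb16 overlapped (2.37 ± 0.71, adjusted p = 0.045) and kept its call only without library 2 or 4 at 16 h or library 4 at 4 h, with adjusted p up to 0.15 without the others.

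Of 20 insulin and nutrient signalling genes, 3 rose and 1 fell (20%, against 4.43% of all genes). Foxo1, the transcription factor that insulin inactivates, measured 36.7, 40.1, 34.3 and 45.6 CPM at 4 h against 93.9, 62.4, 95.7, 107 and 81.8 CPM at 16 h (1.17 ± 0.23, adjusted p = 0.0013). Foxo3 was at 28.3 to 39.1 and 43.7 to 70.2 CPM without overlap (0.75 ± 0.22, adjusted p = 0.036), but lost its call without library 1, 3 or 4 at 16 h or library 1, 3 or 4 at 4 h (up to 0.13). Ddit4, an inhibitor of mTORC1, measured 16.3, 21.5, 21.2, 109 and 6.65 CPM at 16 h against 4.31 to 8.56 CPM at 4 h, so library 4 at 16 h carried much of its change (2.42 ± 0.73, adjusted p = 0.046, and 1.33 with an adjusted p of 0.32 without it). Ddit4 also lost its call without any of the 4 libraries at 4 h. Trib3, a pseudokinase that binds AKT, measured 6.82 to 30.7 CPM at 4 h against 3.72 to 11.5 CPM at 16 h (-1.38 ± 0.42, adjusted p = 0.048) and kept its call only without library 4 at 16 h or library 4 at 4 h, with adjusted p up to 0.30 without the others.

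In glucose metabolism, 2 of 20 genes rose (10%, against 2.3% of all genes). Ppp1r3b, which brings protein phosphatase 1 to glycogen, measured 152, 202, 252 and 223 CPM at 4 h against 658, 423, 616, 373 and 407 CPM at 16 h (1.26 ± 0.27, adjusted p = 0.0036). Pfkfb1, the liver isoform of the enzyme that sets fructose 2,6-bisphosphate, was at 22.8 to 38 and 39.6 to 98.2 CPM (1.04 ± 0.31, adjusted p = 0.042) and kept its call only without library 3 or 4 at 16 h or library 2 at 4 h, with adjusted p up to 0.14 without the others. Gluconeogenesis and amino acid breakdown had 1 of 27 lower (3.7%, against 2.13% of all genes), Hal, the first enzyme of histidine breakdown. It measured 628, 859, 694 and 887 CPM at 4 h against 331, 289, 349, 349 and 243 CPM at 16 h, with no overlap (-1.30 ± 0.30, adjusted p = 0.0070).

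Of 36 tested genes of drug oxidation and its regulators 7 were higher (19.4%, against 2.3% of all genes) and none lower. Nr1i2, the pregnane X receptor, measured 111, 117, 127 and 105 CPM at 4 h against 222, 229, 184, 189 and 228 CPM at 16 h (0.88 ± 0.16, adjusted p = 8.5e-04). Cyp2a5, a coumarin hydroxylase, measured 1610, 809, 1064 and 499 CPM at 4 h against 2988, 2298, 2768, 3787 and 2846 CPM at 16 h (1.56 ± 0.30, adjusted p = 0.0013). Its near-identical neighbour Cyp2a4, with which it may share reads, went from 119 to 340 CPM to 489 to 1464 CPM (2.16 ± 0.48, adjusted p = 0.0049). The flavin monooxygenases Fmo2 (1.62 ± 0.34, adjusted p = 0.0026) and Fmo1 (0.70 ± 0.16, adjusted p = 0.0055) rose as well. Fmo1 did not pass with only these 9 libraries fitted (adjusted p = 0.11). Cyp2b10, the classic target of the constitutive androstane receptor, measured 164, 205, 88.4, 366 and 34.6 CPM at 16 h against 16.1 to 47.7 CPM at 4 h (2.47 ± 0.68, adjusted p = 0.026) and lost its call without library 4 at 16 h or library 1, 3 or 4 at 4 h (up to 0.10). Of 36 conjugation and glutathione genes, Gsta3 rose (1.07 ± 0.29, adjusted p = 0.027) and Gstm4 fell (-1.06 ± 0.26, adjusted p = 0.010), a share of 5.56% that is close to the 4.43% of all genes. Gsta3 lost its call without library 2 at 16 h or library 1, 2 or 4 at 4 h (up to 0.096), and Gstm4 without library 3 at 4 h (0.053).

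**Figure D4:**
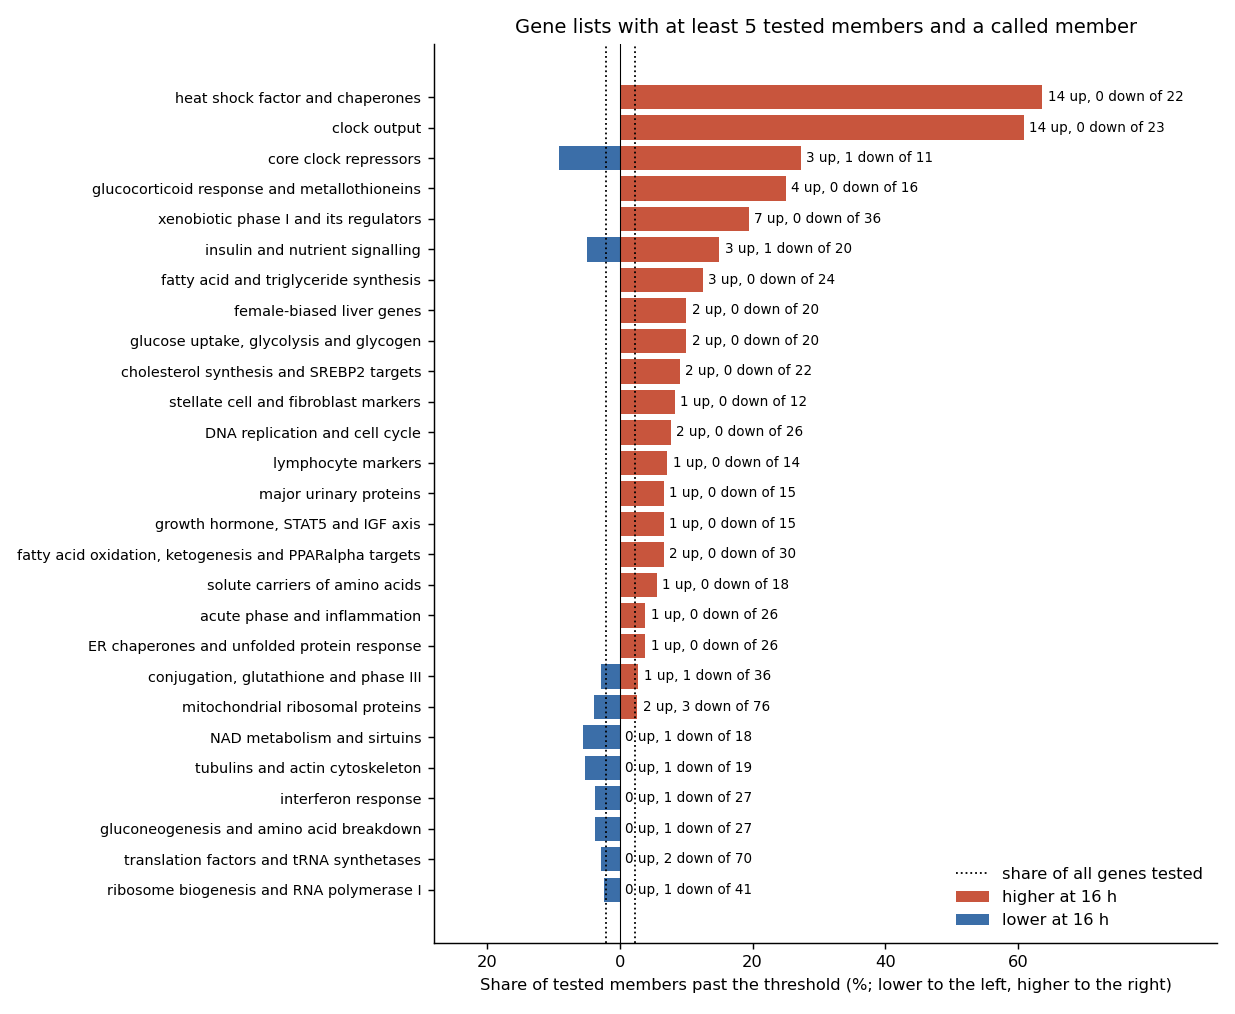
Share of the tested members of each gene list that were higher (red, to the right) or lower (blue, to the left) at 16 h, for lists with at least 5 tested members and at least 1 call, with the counts beside each bar. Dotted lines mark the 2.3% and 2.13% of all genes tested that were higher and lower, and the heat shock list (63.6%) and clock output genes (60.9%) lie farthest from them. The lists were chosen with earlier results of these data known.

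Several gene groups gave no call, against 4.43% of all genes. None of 82 cytosolic ribosomal proteins, 74 nuclear-encoded respiratory chain subunits, 37 proteasome subunits, 21 genes of bile acid synthesis and transport, 26 immediate early genes, 23 apolipoproteins and lipoprotein genes, 32 coagulation and complement genes or 25 autophagy and lysosome genes passed the edgeR test. In the smaller of these lists, no call is little different from the share of all genes and is not read as a result. Single members of some lists passed under other settings, such as DESeq2 or the GC correction. Shares in the following lists, from 2.44% to 7.69% of their members, were near the 4.43% of all genes. Single members passed in 4 of them: the amino acid carrier Slc1a5 (adjusted p = 0.013), the IGF-binding protein Igfbp3 (0.046), the polymerase I factor Taf1b (0.015) and the tropomyosin Tpm1 (0.041). Each lost its call without 3 to 7 of the 9 single libraries and with only these 9 libraries fitted. Of 76 mitochondrial ribosomal proteins 5 passed (6.58%), Mrps21, Mrps6, Mrps5, Mrpl55 and Mrps18b. Each lost its call without at least 2 of the 9 libraries, the last 2 without any of them. Of 26 acute phase genes 1 rose, the amyloid protein Saa4 (1.03 ± 0.24, adjusted p = 0.0085), with library 4 at 16 h the highest at 620 CPM. Saa4 lay at the threshold without library 4 at 4 h (adjusted p = 0.050). The interferon-induced GTPase Mx2 was the 1 of 27 interferon genes that fell (-1.15 ± 0.24, adjusted p = 0.0033). Of 18 genes of NAD metabolism, Nmnat3, which makes NAD in mitochondria, fell (-1.15 ± 0.26, adjusted p = 0.0051), and of 70 translation genes Lars, the leucyl-tRNA synthetase, fell (-0.70 ± 0.16, adjusted p = 0.0049, and 0.098 with only these 9 libraries fitted), as did Eif2c4, which encodes Argonaute 4 (-0.97 ± 0.23, adjusted p = 0.010, and 0.084 without library 2 at 4 h). Among 26 cell cycle genes the thymidine kinase Tk1 rose from 15.9 to 32.9 CPM to 41.9 to 121 CPM (1.5 ± 0.31, adjusted p = 0.0025). Ccne2, a G1 cyclin, also rose (1.75 ± 0.50, adjusted p = 0.035) and kept its call only without library 1, 3 or 5 at 16 h or library 2 at 4 h, with adjusted p up to 0.12 without the others.

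Outside these lists, the lowest p-values among the genes that rose included the atypical small GTPase Rhobtb1, the secreted protein Tsku and the EGF family ligand Nrg4. Rhobtb1 measured 44.3, 36.4, 37.8 and 42.3 CPM at 4 h against 139, 104, 118, 155 and 134 CPM at 16 h (1.69 ± 0.20, adjusted p = 1.4e-06). Tsku measured 63.4, 53.7, 71.1 and 40.5 CPM at 4 h against 397, 172, 332, 268 and 370 CPM at 16 h (2.43 ± 0.33, adjusted p = 1.0e-05). Nrg4 measured 3.68, 3.9, 4.11 and 5.6 CPM at 4 h against 28.5, 48.2, 16.5, 28.3 and 15.7 CPM at 16 h (2.66 ± 0.36, adjusted p = 1.0e-05). All 3 were higher in every 16 h library than in any 4 h library. Some of the largest fitted changes belong to genes close to 0 at 4 h, where the fitted value depends on the prior count: Fam107a measured 0, 0.153, 0.0748 and 0.144 CPM at 4 h against 2.41, 1.34, 2.66, 7.05 and 1.98 CPM at 16 h (4.91 ± 0.75, adjusted p = 6.8e-05). Tmc7, at 0.224 to 1.58 CPM at 4 h (3.37 ± 0.63, adjusted p = 8.8e-04), and the tubulin ligase family member Ttll8 (3.97 ± 0.75, adjusted p = 0.0010) were low at 4 h too. Pdgfrl (3.17 ± 0.73, adjusted p = 0.0066) rested on library 4 at 16 h, at 11.3 CPM beside 0.837 to 3.05 CPM in the others (adjusted p = 0.063 without it). Cpxm1 (2.68 ± 0.79, adjusted p = 0.041) kept its call only without library 1, 2 or 4 at 16 h, with adjusted p up to 0.21 without the others.

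Among the genes that fell with low p-values, the zinc finger gene Zc3h6 measured 6.37, 5.96, 6.51 and 6.24 CPM at 4 h against 1.37, 2.85, 1.37, 0.849 and 1.11 CPM at 16 h (-2.05 ± 0.31, adjusted p = 5.8e-05). Rfx5, a factor of the MHC class II promoter, measured 23.1, 19.2, 20.7 and 21.4 CPM at 4 h against 7.48, 7.03, 13.7, 5.94 and 10.8 CPM at 16 h (-1.23 ± 0.19, adjusted p = 6.8e-05). Both separated fully, and their 4 h libraries agreed closely. The EGF receptor ligands Btc (1.79 to 2.69 CPM at 4 h, 0.158 to 0.502 CPM at 16 h, -2.58 ± 0.45, adjusted p = 4.5e-04) and Egf (1.65 to 3.21 and 0.402 to 0.754 CPM, -1.88 ± 0.38, adjusted p = 0.0018) fell, whereas Nrg4, a ligand of the same family, rose. The Frizzled receptor Fzd6 (-1.58 ± 0.26, adjusted p = 1.5e-04) and the R-spondin receptor Lgr5 (-1.30 ± 0.23, adjusted p = 7.2e-04) fell too. These genes were put side by side after their values were seen. The nuclear envelope protein Syne1, Mtx3, Inca1, Lrrc29, the sulfur dioxygenase Ethe1, Gas7, Arsg, Acpp, Pld6 and Tnfaip8l3 fell too (log2 changes -3.25 to -1.05, adjusted p 1.5e-04 to 0.0060), each without overlap. The arrestin family member Arrdc3 (-1.89 ± 0.50, adjusted p = 0.021) overlapped, with 50.2, 81.3, 281 and 239 CPM at 4 h against 28.7 to 57.4 CPM at 16 h, and lost its call without library 4 or 5 at 16 h or library 3 or 4 at 4 h (up to 0.13). Klhdc7a (-1.83, adjusted p = 0.020) lost its call without library 4 at 16 h or library 3 or 4 at 4 h (up to 0.075), and Fam83f (-2.93, adjusted p = 0.038) kept its call only without library 2 at 16 h or library 4 at 4 h (up to 0.093 without the others).

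Markers of other cells moved with some of the largest changes. The immunoglobulin genes Ighm, Igkc and Igkv3-2 passed the test (log2 changes 5.04, 2.88 and 7.78) through WT library 5 at 16 h, which measured 1190, 320 and 112 CPM, against 5.09 to 47, 6.28 to 27.6 and 0.0849 to 0.36 CPM in the other 16 h libraries. Without that library their log2 changes were 1.14, 0.48 and 1.26 (adjusted p 0.52, 0.77 and 0.79). Of 14 lymphocyte markers all had a positive log2 change and only Ighm passed, and their summed level was 17.35 to 32.58 CPM at 4 h against 18.49 to 1266 CPM at 16 h. Of the 12 stellate cell and fibroblast markers 11 were positive, their summed level was 242.5 to 462.5 CPM at 4 h against 476.4 to 852.6 CPM at 16 h, and Des passed (0.73 ± 0.22, adjusted p = 0.048) but kept its call only without library 1 or 2 at 16 h, with adjusted p up to 0.19 without the others. No marker of Kupffer cells (14 tested), endothelium (14), bile duct (7), neutrophils (9), red blood cells (5) or adipocytes (5) passed. These lists are too short for that to differ from the 4.43% of all genes. Summed levels of Kupffer cell markers were 205.7 to 683.8 CPM at 4 h against 211.9 to 950.3 CPM at 16 h. Those of red blood cells were 47.79 to 121.8 CPM at 4 h against 95.18 to 443 CPM at 16 h. Bile duct markers had their highest sum at 4 h, with 55.18 to 172.8 CPM against 57.65 to 80.63 CPM at 16 h. Neutrophil markers held 4.113 to 16.07 CPM at 4 h against 5.303 to 115.9 CPM at 16 h. The part of these cells in the 604 calls was not tested. Without library 5 at 16 h, 13 heat shock genes and 13 clock output genes rose, and without library 2 at 16 h these were 14 and 15. Other settings took more calls away. With a block on the replicate number, fitted to the 9 libraries alone, 15 genes were called in all. Dnajb1, Chordc1, Hspa8, Usp2, Fmo5 and Nampt then lost their calls, while Hsph1, Lpin1 and Upp2 kept theirs.

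The major urinary proteins, a family of near-identical secreted proteins whose counts may be split between copies, varied between the mice at 16 h. Mup11 measured 8.44, 80.7, 1.8, 362 and 7.99 CPM at 16 h and 3.51 to 15 CPM at 4 h, and Mup20 measured 88.5, 189, 43.5, 743 and 50.7 CPM at 16 h and 101 to 153 CPM at 4 h. Library 4 at 16 h was the highest in both. Mup11 passed (3.35 ± 1.00, adjusted p = 0.045) but not without that library (1.45, adjusted p = 0.43) nor without any 4 h library, and it was the only one of 15 tested members to pass.

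The same contrast in the KO mice asks whether the change from 4 h to 16 h differed between the genotype labels. The Cre driver is one used for adipocytes, so the contrast does not show whether a change in liver depends on Bmal1. Arntl itself measured 12.6, 10.5, 6.08 and 8.97 CPM in the libraries labelled KO at 4 h, and 19.2, 36.1 and 23.6 CPM in those labelled KO at 16 h. These lay below most WT libraries at 4 h but not at 16 h, so the level of the gene did not separate the genotypes at both times, and counts per gene do not show whether the floxed part was transcribed. No gene passed the test of the difference between genotypes (0% of 13646 by edgeR, 617 at an unadjusted p under 0.05, and 7 by DESeq2). The difference of Npas2 had the lowest p: its log2 change was -4.29 in WT and -0.12 ± 0.57 in KO (difference -4.17 ± 0.82, adjusted p = 0.063). KO libraries measured 4.05, 3.54, 0.822 and 1.7 CPM at 4 h against 1.11, 3.13 and 2.78 CPM at 16 h, so the KO groups overlapped where the WT groups did not. Pxdn (-0.26 in WT and 1.07 in KO, difference -1.33 ± 0.26, adjusted p = 0.063), Rnf144a (-1.25 and 0.98, difference -2.23 ± 0.47, adjusted p = 0.11) and Map4k4 (-0.22 and 1.24, difference -1.46 ± 0.31, adjusted p = 0.11) followed. Slc4a9, Fst, Lepr, Igfbp1, Tmem171 and Mpzl1 came next (adjusted p of the difference 0.18 to 0.58), and the KO values of Igfbp1, Lepr, Slc4a9 and Fst at 16 h rested on library 2. It measured 3766 CPM of Igfbp1 against 129 and 109 CPM in the other two. Lepr was at 516 CPM there against 32.1 and 30.4 CPM. Slc4a9 was at 17.5 CPM against 0.223 and 0.653 CPM, and Fst at 25.6 CPM against 2.6 and 2.37 CPM. Rnf144a lost its WT call without library 1 at 16 h (-1.08, adjusted p = 0.051) or library 2 at 4 h (-0.82, adjusted p = 0.17). In KO alone 438 genes (3.21%) passed, but this number ran from 42 without KO library 2 at 16 h to 2146 without KO library 3 at 16 h, and the difference between genotypes called 132 genes without the latter. The sign of the change was the same in both genotypes for 576 of the 604 WT calls (95.4%, against 68.5% of all genes). Both genotypes called 156 genes with the same sign (25.8% of the WT calls and 35.6% of the KO calls) and none with opposite signs. Cry1 (2.59 ± 0.28, adjusted p = 1.5e-07) and Per2 (1.74 ± 0.31, adjusted p = 0.0017) passed in KO, and Hsph1 did so at a log2 change of 1.56 against 2.31 in WT (p of the difference 0.10 before adjustment). Hal measured -1.30 in WT and 0.18 in KO (p of the difference 0.0023 before and 0.78 after adjustment).

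WT libraries at 0, 8, 12 and 20 h, which lie outside the groups compared, were tested for a difference between those 4 times. Both tests came from the same fit, in which all libraries set the spread of each gene, so they are not independent. There 820 genes (6.01%) passed. Among the 604 genes that changed between 4 h and 16 h, 156 passed (25.8%), and among the 13042 others 664 did (5.09%). Of the 314 genes that rose, 233 had their highest WT mean at 16 h and 63 at 12 h, and 221 had their lowest at 4 h. Of the 290 that fell, 154 had their highest mean at 4 h, 72 at 0 h and 58 at 8 h, and 240 had their lowest at 16 h. These means use the same 4 h and 16 h libraries that chose the genes.

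The course over the 6 times differed between genes of like change. Per2 averaged 7, 10.4, 47.8, 81.7, 71.3 and 29.4 CPM at 0, 4, 8, 12, 16 and 20 h and passed the test over the other times (adjusted p = 1.5e-09). Npas2 averaged 10.5, 6.15, 0.0742, 0.0995, 0.31 and 5.59 CPM, so its low level began before 16 h (adjusted p = 2.2e-10), and Cry1 averaged 31.5, 12.5, 8.07, 19, 45.4 and 54.9 CPM, with its highest mean at 20 h (adjusted p = 8.3e-09). Tef averaged 66.7, 138, 360, 347, 235 and 134 CPM, so 4 h and 16 h lay on either side of its highest mean (adjusted p = 1.6e-11). Hsph1 averaged 38.4, 29.4, 51.3, 55, 146 and 88.6 CPM and did not pass over the other times (adjusted p = 0.051), and neither did Cirbp (56.4, 79.1, 43.9, 47.7, 27.8 and 46.1 CPM, adjusted p = 0.81) or Fkbp5 (88.8, 44.9, 97.8, 214, 283 and 160 CPM, adjusted p = 0.12). For Hsph1, Cirbp and Fkbp5 the highest and lowest WT means were thus the times compared. Dbp, which did not pass between 4 h and 16 h, did so over the other times (adjusted p = 1.5e-09), with its highest mean at 8 h.

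**Figure D5:**
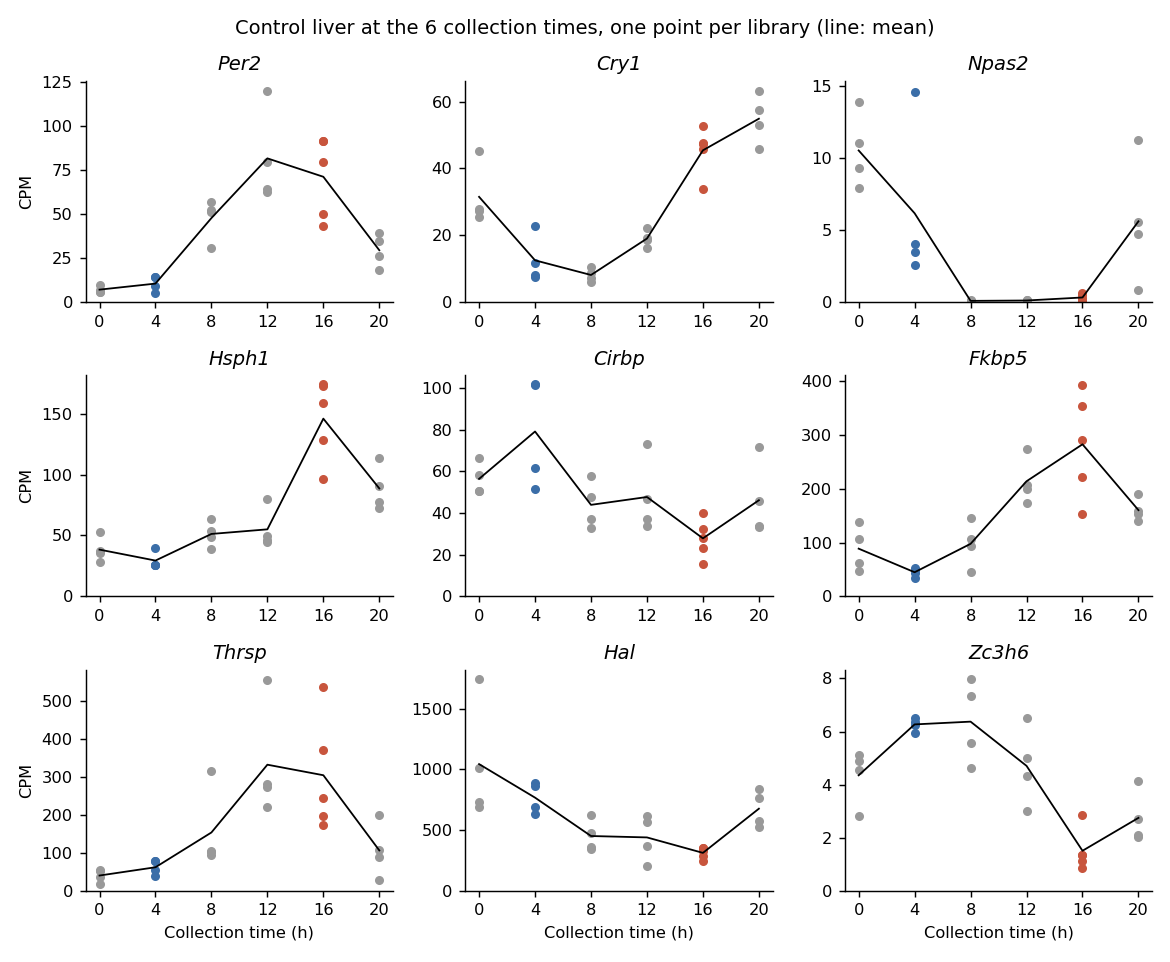
CPM of 9 genes in each WT library at the 6 collection times, with 4 h in blue, 16 h in red and the line through the means. Hsph1 and Fkbp5 peak at 16 h (means of 146 and 283 CPM), Per2 at 12 h (81.7 CPM), Cry1 at 20 h (54.9 CPM), and Npas2 is near 0 from 8 h to 16 h.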

How the data were processed

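Liver RNA was sequenced from 48 mice, of which 9 form the comparison. Libraries were made from poly-A RNA by random priming with a TruSeq kit that does not mark strand, per the labels' protocols. CASAVA, STAR 2.4.1d and the mm9 build are named in the submitters' processing notes. The counting rule, the annotation and the use of strand were not given in the sources used here. Therefore overlapping and antisense genes, and near-identical copies, cannot be told apart. The authors deposited 1 table of whole-number counts per gene, and the values are used as deposited. The Alb row was left out because its values were multiples of about 1311.61 (largest distance 0.736), unlike the other rows. Groups and replicate numbers came from the labels.

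All 48 libraries were fitted with 12 group means in edgeR 4.0.16 (R 4.3.3), with genes kept by filterByExpr (minimum count 10, minimum total 15), TMM scaling, the quasi-likelihood test and Benjamini-Hochberg adjustment over 13646 genes at 0.05. Adjusted p-values are from this test unless another is named, and ± is the standard error, the log2 change divided by the square root of F. The differences between genotypes and between the 0, 8, 12 and 20 h groups came from the same fit. The script was tested on simulated data. P-values measure the spread between mice. The members and gene lists were chosen with earlier results of these data known. A few genes are not reported here and were left out of the lists, while the fit used the whole table. Named genes were the tested clock genes of the lists, the 15 largest changes in each direction at a mean of at least 1 CPM, the 10 lowest p-values in each direction, up to 6 called members of each other list, and the 10 lowest p-values of the difference between genotypes. Alternatives were DESeq2 1.42.0 with its size factors, library totals alone, no filter, only the groups compared, a block on replicate number, and leaving out libraries. A correction for GC content was added after the data were seen. The replicate numbers were not used to pair mice.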

Additional observations from a re-analysis of the deposited data

Results flagged for a closer look

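Single libraries stood apart from the rest of their group in 32 of 272 groups tested (136 genes at 2 times, 11.8%), by Dixon's criterion for the gap between an extreme value and its neighbour. For normally distributed values the criterion gives about 1 in 20. CPM values need not be so distributed, and many of these genes were named for their changes. The 11.8% is therefore not read as an excess over chance. Values are CPM, and none was left out of the tests for this reason.

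WT library 2 at 16 h gave 11 of them. It was the highest for Arntl (21.3), Clock (101), Fmo2 (317), Insig2 (1104), Lars (44.7) and Zc3h6 (2.85), and the lowest for Cry2 (28.2), Hsp90ab1 (372), Leo1 (6.61), Per1 (25.9) and Ppard (1.59). It is also the library farthest out on the first principal component, with the GC relation of -0.569 given above. The part of GC content in these values was not tested gene by gene.

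WT library 4 at 16 h was the highest for Ddit4 (109), Fam107a (7.05), Mup11 (362), Mup20 (743), Pdgfrl (11.3) and Saa4 (620). WT library 5 at 16 h was the highest for the immunoglobulin genes Ighm (1190), Igkc (320) and Igkv3-2 (112). Library 3 at 16 h was the highest for Fzd6 (4.53) and Tnfaip8l3 (0.576).

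At 4 h, library 2 was the highest for Eif2c4 (14.4), Npas2 (14.6), Rnf144a (23) and Igkv3-2 (0.153). Library 3 was the highest for Btc (2.69) and Gstm4 (67.7), and library 4 for Hspa1b (3.73), Hsph1 (39.4) and Lepr (60.8). Library 1 was the lowest for Lars (46).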

How the results depend on the processing

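The 604 calls between 16 h and 4 h became 609 with DESeq2's size factors in edgeR, 678 by library totals alone (35.3% of them higher, against 52%), 423 without a filter, 772 by DESeq2 and 655 without 3 libraries that stand apart elsewhere in the study. They became 248 with only the groups compared (221 shared), 1109 after the GC correction chosen after seeing the data (567 shared) and 1022 with that correction and without WT library 2 at 16 h. Leaving out single libraries gave 330 to 667. The difference between genotypes called 7 genes by DESeq2 and 0 to 132 without single libraries, the 4 other WT times 1242 by DESeq2, 1293 after GC correction and 589 to 1011 without single libraries, and the KO contrast 289 without a filter, 22 without the 3 libraries, 684 by DESeq2, 822 after GC correction and 42 to 2146 without single libraries. A block on the replicate number, fitted to the 9 libraries alone, left 15 calls (14 shared), beside 248 for the same libraries without it. Over 2000 genes the same-numbered mice of the 2 times correlated at 0.357, -0.316, -0.342 and -0.13, and mice with different numbers at -0.658 to 0.547. Same-numbered mice were thus not more alike, but with so wide a spread this measure does not decide whether the numbers mark a shared block. Of 136 genes named, 103 passed, and none of those changed sign under any setting, while 5 that did not pass did so under 1 or 2 settings each (Bhlhe41, Clock, Elovl3, Lepr and Mup20). Of the 103, 62 held without each of the 9 libraries in turn, and 31 were lost with only the groups compared. Of the list members that passed, those of cholesterol synthesis went from 2 to 1 by library totals alone, without a filter, without library 1, 3 or 5 at 16 h and without any 1 library at 4 h, and to 4 by DESeq2. The causes were not tested.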
